A study of Homo sapiens with 8 samples.

Results

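Clustered protocadherin genes are the protein-coding genes of chromosome 5 whose symbols begin with PCDHA, PCDHB or PCDHG. They were found in the count table by matching its identifiers to GENCODE release 44, without use of any measured value. The rule gave 53 of the 60659 genes in the table, of which 15 belong to the alpha cluster, 16 to the beta cluster and 22 to the gamma cluster.

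Clustered protocadherins are adhesion proteins of the cadherin superfamily that lie on the surface of neurons. Each neuron switches on a mixture of them, and matching proteins on touching membranes let the branches of a neuron recognize and avoid each other. Every alpha and gamma gene has a variable exon of its own, with its own promoter, which codes for the extracellular and transmembrane parts of the protein and is spliced to constant exons that all genes of the cluster share. Beta genes have no constant exons. The last genes of the alpha and gamma clusters, PCDHAC1, PCDHAC2, PCDHGC3, PCDHGC4 and PCDHGC5, are called C-type. The other genes are chosen in part at random, by DNA methylation and by CTCF and cohesin, which bring a promoter to a distant enhancer, whereas C-type genes are expressed more evenly among neurons.

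Ribosomal RNA-depleted total RNA was sequenced in 8 libraries of SK-N-SH, a neuroblastoma line of human origin. The labels number 2 replicates in each of 4 groups without saying whether they are separate cultures. All cells had received 10 μM all-trans retinoic acid (ATRA) for 24 h in differentiation medium. In the overexpression experiment, cells carrying FLAG-tagged ZMYND8 (ZMYND8 OE) were compared with parental cells, both with doxycycline (Dox). According to the methods, ZMYND8 was expressed from the lentiviral vector pInducer20 in cells selected with Geneticin, and the label parental names no empty vector, so that vector and selection cannot be told apart from ZMYND8. In the knockdown experiment, cells labelled ZMYND8 KD were compared with Control KD cells (KD control), and no Dox is named for either. The methods describe lentiviral shRNA in pLKO.1, with the dose for selection given for other cells, and also a knockout made with the vector pX459, which the study used in SK-N-SH, so how the cells labelled KD were made is known only from that label. Each experiment had its own control cells, so a difference in level across experiments cannot be separated from how each was run. In bulk RNA, fewer expressing cells and less RNA per cell cannot be told apart either.

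Library totals ran from 38316523 to 56256979 counts on genes. ZMYND8, the targeted gene, had 3089 and 3612 counts in parental against 220691 and 182849 in ZMYND8 OE, and 3128 and 3374 in KD control against 1641 and 1640 in ZMYND8 KD, where its log2 fold change was -0.94 (SE 0.06, adjusted p = 2.2e-06). The label calls the cells epithelial, and the 5 epithelial markers were uneven, with 0 to 12 counts per library for CDH1 and 0 to 1 for KRT5, 22 to 56 for EPCAM, 878 to 3954 for KRT8 and 6454 to 20905 for KRT18. Of 12 noradrenergic neuroblastoma markers, 8 were called higher and 0 lower in ZMYND8 OE, and their summed level was 363 to 365 CPM (counts scaled to library size with TMM factors) in parental, 1510 to 1600 in ZMYND8 OE, 1420 to 1520 in KD control and 1140 to 1330 in ZMYND8 KD. TH was at 0 in both knockdown groups and at 5 counts or fewer elsewhere. Of 7 mesenchymal markers, 5 were called lower and 0 higher, with summed levels of 9180 to 9780, 3250 to 3410, 4020 to 4130 and 5070 to 5430 CPM in the same order of groups. The part of these marker differences in the results was not tested. Of the markers of other cells, 2 of 5 epithelial and 2 of 3 endothelial genes were called lower and 1 of 5 glial genes higher, while leukocyte markers summed to at most 0.409 CPM. Among all genes tested in overexpression, 11.8% were called higher and 6.84% lower, and no marker list was tested against these shares.

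The structure of the clusters decides which reads count. In the alpha cluster, 2869 exon bases in 3 blocks are shared by all 15 genes, and in the gamma cluster 2177 bases in 3 blocks by all 22, while no base is shared by all beta genes. Reads on shared exons cannot be assigned to 1 gene and are left out by featureCounts unless set otherwise, so a member's count comes mainly from its variable exon. Levels are therefore given as reads per kilobase of exon bases that no other gene covers on the same strand, scaled to library size with TMM factors (RPKM). The length of these bases was 2459 to 10574 per member in the alpha and gamma clusters. PCDHA4 and PCDHA10 have 10574 and 10355 such bases, far above the alpha median of 3293, so their level per kilobase is spread over long extra exons. Exons of a gene on the opposite strand cover 48.6% of the exon bases of PCDHA1 and 43.85% of those of PCDHB2, the only members above 20%. Of genes lying wholly under exons of opposite-strand genes, 38.1% had more than 100 counts, against 1.15% of those under same-strand exons, so the table was read as counted by strand. Members also resemble each other: in 9 of the 53, more than 10% of the exonic 100-base sequences occur elsewhere in the genome, at most 25.47% in PCDHB8 and 24.69% in PCDHB10, and such reads may be lost or misplaced. Of the C-type members, none had such a sequence.

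Promoter sequences from RefSeq (build GRCh38.p14, 250 bases before to 50 after the gene's start) matched 47 members. PCDHA3, PCDHA13, PCDHB6, PCDHB11, PCDHGA12 and PCDHGC5 had no entry. Many promoters of clustered protocadherins, though not all, are known for a conserved element with the core CGCT, which is part of a site that CTCF binds. Only the letters CGCT were searched for here. A match, as in PCDHAC2, PCDHB1 or PCDHGC4, therefore does not show that a promoter carries the whole element or binds CTCF. On the gene's strand, CGCT lay between 90 and 30 bases before the start in 42 of the 47 promoters (89.4%), namely 12 of 13 alpha, 12 of 14 beta and 18 of 20 gamma promoters, against 18.3% of all 35116 RefSeq promoters. Anywhere in the 300 bases and on either strand, it occurred in 46 of 47 and in 70.0% of all promoters. The window, too, was set after the positions were known. The stretches below run from 110 to 21 bases before the start, on the plus strand, with every CGCT in capitals. The first set shows the members called higher in ZMYND8 OE, so that their promoters can be compared.
PCDHA1: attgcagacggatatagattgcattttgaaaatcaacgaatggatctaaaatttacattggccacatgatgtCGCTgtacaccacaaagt
PCDHA8: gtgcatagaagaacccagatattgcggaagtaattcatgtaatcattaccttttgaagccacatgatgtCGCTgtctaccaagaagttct
PCDHA9: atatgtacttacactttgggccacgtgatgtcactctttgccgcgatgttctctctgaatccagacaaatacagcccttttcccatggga
PCDHA10: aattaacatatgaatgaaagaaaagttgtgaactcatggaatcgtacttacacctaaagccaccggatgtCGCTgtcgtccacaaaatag
PCDHA12: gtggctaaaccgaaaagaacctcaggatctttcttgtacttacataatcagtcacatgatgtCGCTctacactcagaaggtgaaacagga
PCDHAC1: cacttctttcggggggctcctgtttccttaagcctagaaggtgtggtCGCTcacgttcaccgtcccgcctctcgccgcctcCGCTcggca
PCDHAC2: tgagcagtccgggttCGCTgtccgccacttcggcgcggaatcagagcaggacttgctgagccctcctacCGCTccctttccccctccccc
PCDHB4: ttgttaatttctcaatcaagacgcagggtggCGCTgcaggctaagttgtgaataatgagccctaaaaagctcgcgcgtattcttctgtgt
PCDHB5: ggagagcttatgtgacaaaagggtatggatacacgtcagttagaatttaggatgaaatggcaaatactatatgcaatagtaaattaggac
PCDHGC4: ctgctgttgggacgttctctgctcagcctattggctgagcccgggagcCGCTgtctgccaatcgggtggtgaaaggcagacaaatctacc
The second set shows PCDHB2, called lower, and PCDHGB7 and PCDHGC3, the most abundant members.
PCDHB2: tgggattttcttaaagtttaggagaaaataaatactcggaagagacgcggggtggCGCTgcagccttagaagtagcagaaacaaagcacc
PCDHGB7: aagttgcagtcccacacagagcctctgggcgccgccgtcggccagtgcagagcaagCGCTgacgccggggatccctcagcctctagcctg
PCDHGC3: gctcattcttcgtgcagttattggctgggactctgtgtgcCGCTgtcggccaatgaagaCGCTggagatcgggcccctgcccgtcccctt
These stretches lie at chr5:140926189-140926278 for PCDHAC1, chr5:140966366-140966455 for PCDHAC2, chr5:141484920-141485009 for PCDHGC4, chr5:141094505-141094594 for PCDHB2 and chr5:141475856-141475945 for PCDHGC3. The letters before the core differed between clusters, in words that were chosen after the sequences had been seen. GATGTCGCT was found on either strand in 9 of 13 alpha promoters and 0 of the beta and gamma promoters, and in 0.105% of all promoters. GGTGGCGCT was found in 13 of 14 beta promoters, 0 of the others and 0.501% of all promoters. In the gamma cluster the most frequent such word, GGCGCCGCT, was in 6 of 20. Both the promoters with CGCT in the window and those without held called members, 8 called higher and 1 lower among 42 and 2 higher and 0 lower among 5, PCDHA9 and PCDHB5 being the 2.

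Levels varied widely among members. Over the 8 libraries the mean level ran from 0.029 RPKM for PCDHB1 to 34.3 for PCDHGC3, with a median of 0.965, and 25 of 53 members were above 1 RPKM. Beta genes were expressed broadly, 14 of 16 being above 1 RPKM, against 3 of 15 alpha and 8 of 22 gamma genes. PCDHGC3 and PCDHGB7, at 34.3 and 22.6 RPKM, stood above all other members and together took 61.9 to 68.8% of the counts of the gamma cluster in every library. PCDHGC3 is widely expressed and is known to bind AXIN1, a scaffold of WNT signalling. Below them in the gamma cluster came PCDHGA7 at 8.40, PCDHGB2 at 3.70 and PCDHGC4 at 3.04 RPKM. The highest beta members were PCDHB14 at 6.04, PCDHB6 at 5.94, PCDHB3 at 5.71, PCDHB8 at 4.24 and PCDHB16 at 3.56 RPKM. The leading beta gene was not the same in every group, PCDHB8 and PCDHB14 being close at 6.52 and 6.49 RPKM in parental and PCDHB3 first at 7.64 in KD control and 8.02 in ZMYND8 KD. In the alpha cluster PCDHAC2, PCDHAC1, PCDHA12, PCDHA8 and PCDHA4 led, at 2.83, 2.26, 1.55, 0.965 and 0.537 RPKM.

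**Figure D1:**
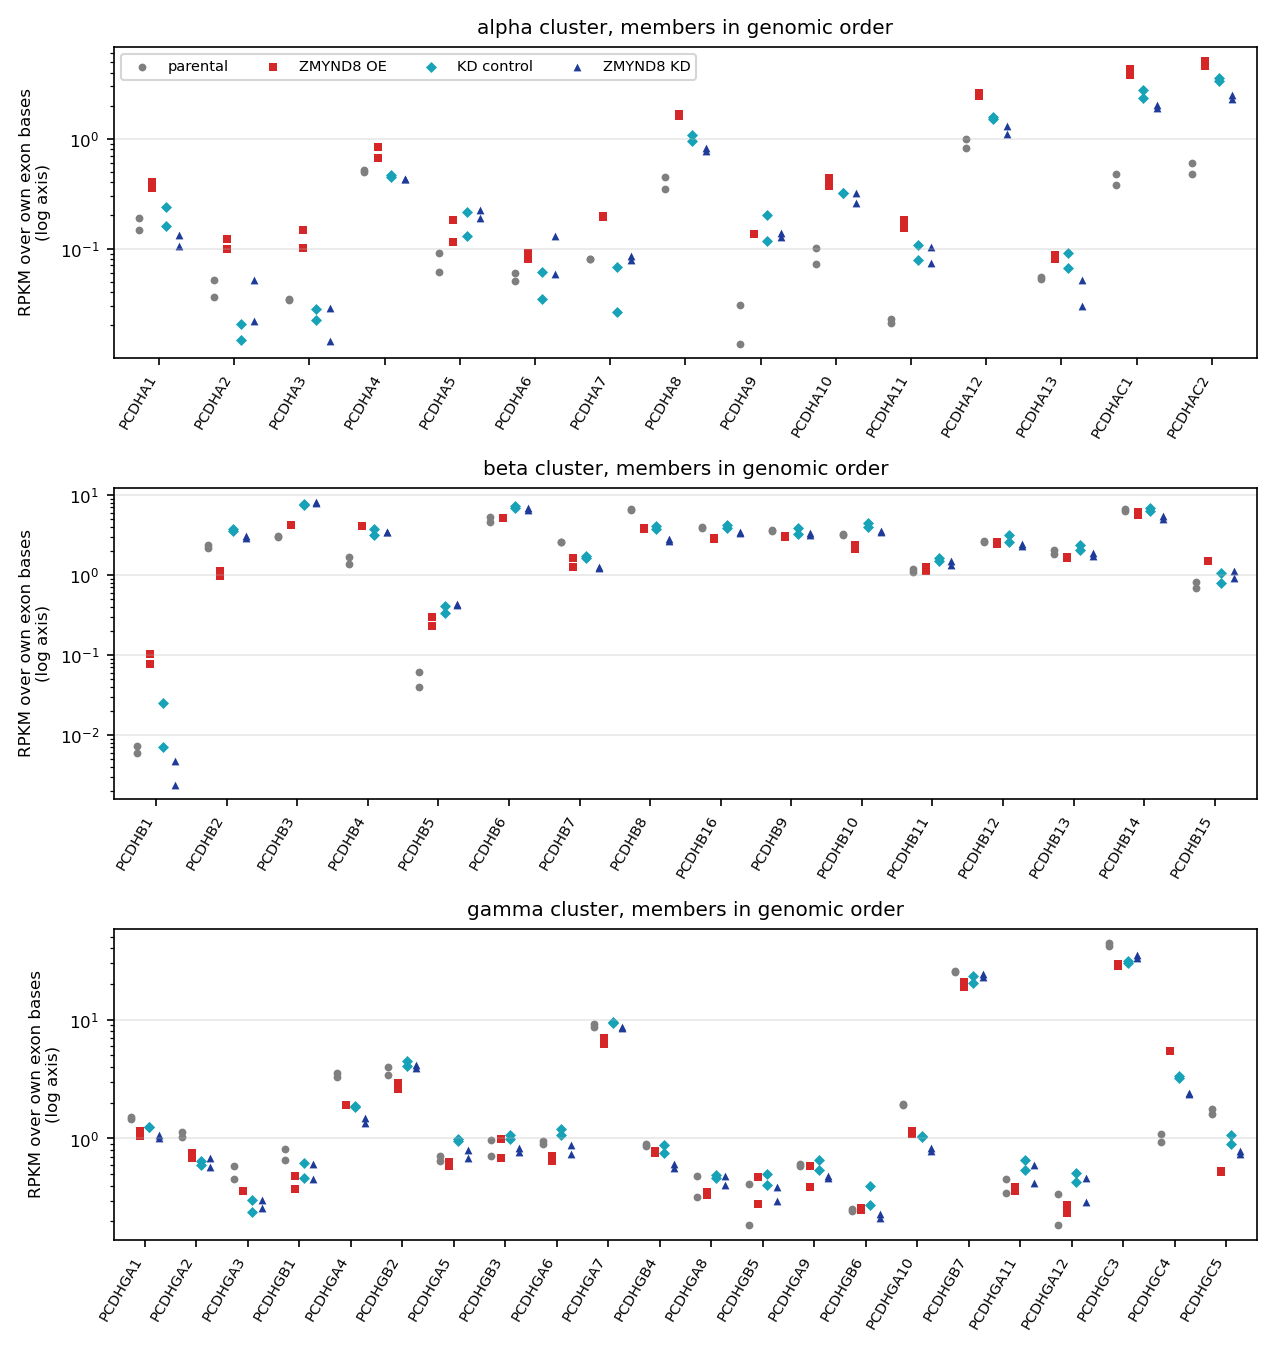
Level of each clustered protocadherin in RPKM over its own exon bases (log axis) in each of the 8 libraries, by cluster and in genomic order, with 1 point per library and 4 groups of 2. The parental points lie lowest for PCDHAC1, PCDHAC2, PCDHGC4 and PCDHB5, while PCDHGC3 and PCDHGB7 stand at the top in all groups.

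To determine how the levels of the clusters differed in overexpression, ZMYND8 OE was compared with parental cells. All 53 members passed the filter on low counts, 10 were called higher and 2 lower, where a gene was called if its adjusted p was under 0.05, its log2 fold change was 1 or more in either direction and its normalized counts averaged over 20. Of all 20835 genes tested, 11.8% were called higher and 6.84% lower, and 7 of the 10 members called higher belonged to the alpha cluster. With the adjusted p alone, 18 members were higher and 17 lower, against 31.7% and 29.1% of all genes. The median log2 fold change was 0.00 over the members and 0.03 over all genes. The clusters had different medians. All 15 alpha genes had positive values, with a median of 1.48, whereas the medians were -0.09 for beta and -0.38 for gamma. Mean counts of 20 or less kept 7 members from a call whatever their change, 6 of them alpha genes and the other PCDHB1.

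**Figure D2:**
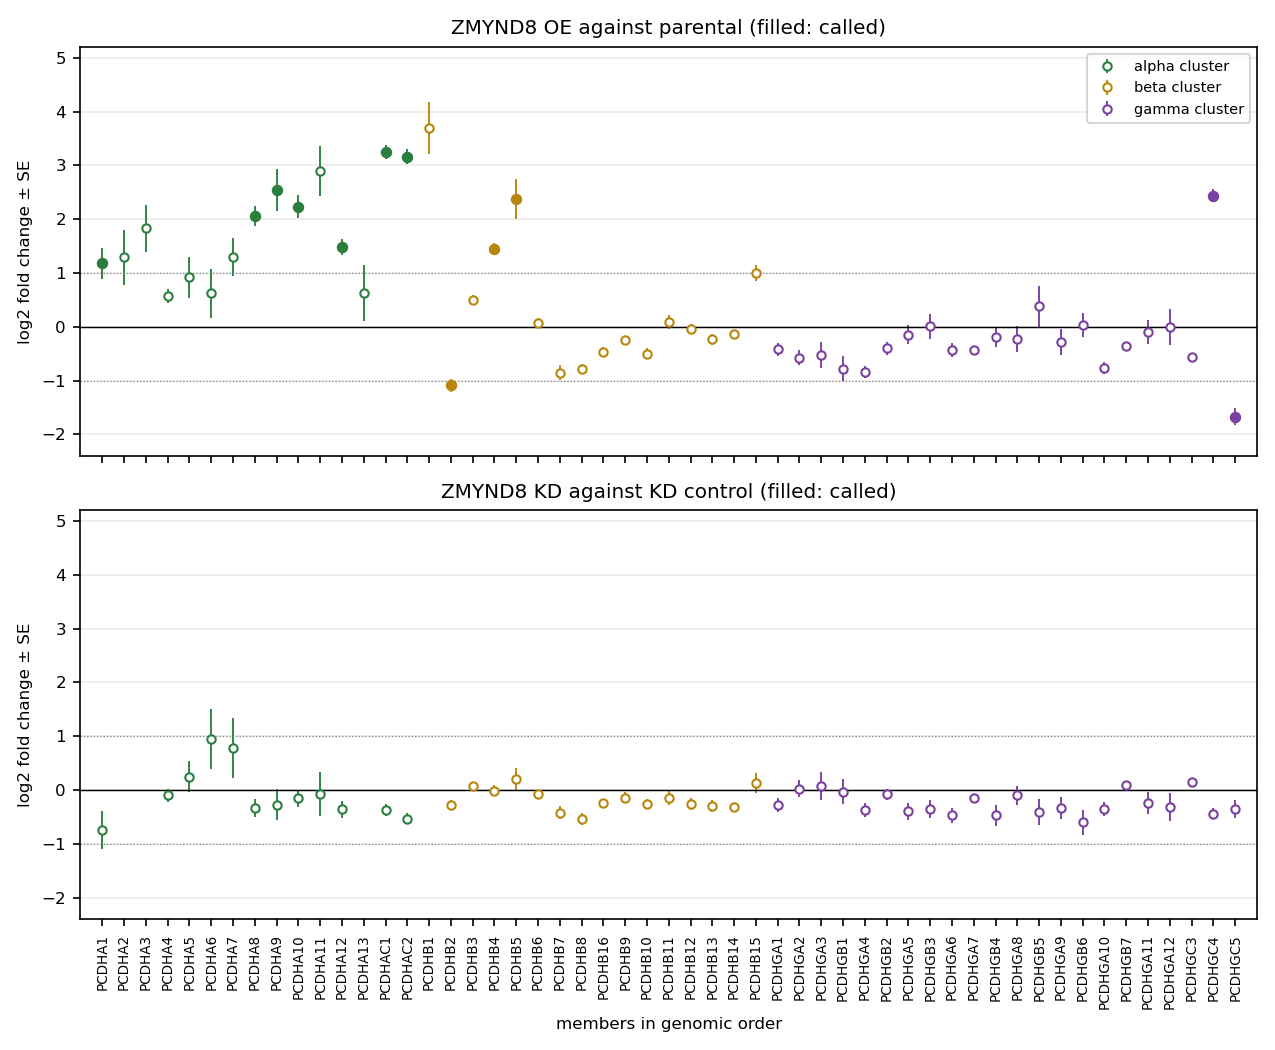
Log2 fold change ± SE of each member tested (edgeR, 2 libraries per group), in genomic order, in overexpression (top) and knockdown (bottom). Filled points are called. The 15 alpha genes lie above 0 in overexpression, most gamma genes lie below 0, and no member is called in knockdown. PCDHB1, with 2 and 3 parental counts, has no reliable fitted value.

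In the alpha cluster, 7 of 15 genes were called higher in ZMYND8 OE and 0 lower, beside 11.8% and 6.84% of all genes. With an adjusted p below 0.05, 12 of 15 were higher and 0 lower, beside 31.7% and 29.1% of all genes. The C-type genes of the cluster rose most. PCDHAC1 (ENSG00000248383, chromosome 5 from 140926299 to 141012347) had 67 and 102 counts in parental and 857 and 788 in ZMYND8 OE. Its level was 0.428 ± 0.068 against 4.08 ± 0.34 RPKM (SD, n = 2), with both OE libraries far above both parental libraries. The log2 fold change was 3.25 (SE 0.14, adjusted p = 9.89e-09). PCDHAC2 (ENSG00000243232), which serotonergic neurons need to space their axons, had 67 and 103 counts in parental and 812 and 741 in ZMYND8 OE. It rose from 0.542 ± 0.089 to 4.85 ± 0.37 RPKM (SD, n = 2), a log2 fold change of 3.16 (SE 0.14, adjusted p = 1.3e-08). PCDHAC1 took 10.7 and 12.9% of the alpha counts in parental and 27.8% in both ZMYND8 OE libraries, and PCDHAC2 took 10.7 and 13.0% against 26.3 and 26.1%.

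Among the alpha genes that are not C-type, 5 of 13 were called. PCDHA9 had 4 and 11 counts in parental and 50 and 41 in ZMYND8 OE, a log2 fold change of 2.54 (SE 0.39, adjusted p = 0.000212). Without ZMYND8 OE replicate 1 it was not called, at a log2 fold change of 2.55. PCDHA10 had 45 and 39 counts against 208 and 199, with a log2 fold change of 2.23, and PCDHA8 had 50 and 47 against 235 and 186, with 2.06. PCDHA12 was the most abundant of this group, with 91 and 132 counts against 341 and 296, a log2 fold change of 1.48 (SE 0.15, adjusted p = 8.49e-06). In PCDHA8, PCDHA10 and PCDHA12, as in every other alpha gene, the OE libraries lay above the parental ones. The share of all genes so separated was not computed. PCDHA1 rose from 22 and 21 counts to 52 and 49, a log2 fold change of 1.18 (adjusted p = 0.00421), and DESeq2 did not call it. The lncRNA ENSG00000279726 on its opposite strand was also called higher, with 33 and 41 counts against 109 and 98. PCDHA4 had the smallest change of the cluster, with 235 and 270 counts against 381 and 390, a log2 fold change of 0.57 (adjusted p = 0.00364). Its share of the alpha counts was 37.4 and 34.1% in parental, the highest of all members of the cluster, and 12.4 and 13.7% in ZMYND8 OE. These shares are not corrected for its long exons. Per kilobase PCDHA4 was not first in parental, at 0.509 RPKM against 0.907 for PCDHA12 and 0.542 for PCDHAC2. Of the remaining genes, PCDHA2, PCDHA3, PCDHA7 and PCDHA11 had an adjusted p below 0.05 but low means. PCDHA5, PCDHA6 and PCDHA13 did not pass, with values of 0.92, 0.62 and 0.63.

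The C-type genes of the gamma cluster went different ways. PCDHGC4 (ENSG00000242419, from 141484997 to 141512979), on which the survival of interneurons depends in mice, had 111 and 157 counts in parental and 826 and 669 in ZMYND8 OE. It rose from 1.01 ± 0.11 to 5.47 ± 0.04 RPKM (SD, n = 2), a log2 fold change of 2.44 (SE 0.12, adjusted p = 2.56e-08). PCDHGC5 (ENSG00000240764), a partner of the GABA-A receptor, fell, with 213 and 235 counts in parental and 81 and 65 in ZMYND8 OE. Its level was 1.68 ± 0.12 against 0.524 ± 0.007 RPKM (SD, n = 2), with a log2 fold change of -1.67 (SE 0.16, adjusted p = 7.26e-06). These neighbouring genes, the last of the locus, thus moved in opposite directions. PCDHGC3 was lower in ZMYND8 OE without being called, with 5796 and 7431 counts against 4998 and 4224 and a log2 fold change of -0.56 (SE 0.05, adjusted p = 4.38e-06).

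**Figure D3:**
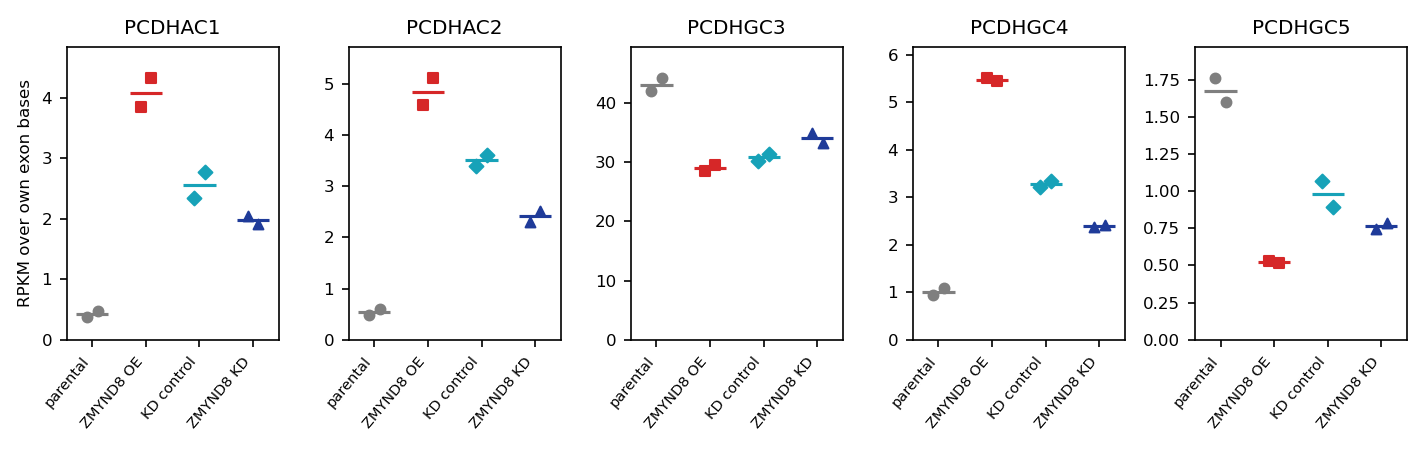
Level of the 5 C-type members in RPKM over their own exon bases, 1 point per library, with a line at the mean of each group of 2 and a separate linear axis from 0 for each gene. PCDHAC1, PCDHAC2 and PCDHGC4 share the order parental, ZMYND8 KD, KD control, ZMYND8 OE, whereas PCDHGC3 and PCDHGC5 are highest in parental and lowest in ZMYND8 OE.

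The other gamma genes moved little. None of the 12 gamma A and 7 gamma B genes was called, with 12 and 4 negative values respectively. At an unadjusted p below 0.05 in edgeR, 6 gamma A and 3 gamma B genes were lower and 0 higher, and DESeq2 called 0. The share of all genes at that unadjusted p was not computed. With the adjusted p alone, 11 of all 22 gamma genes were lower and 1 higher, beside 29.1% and 31.7% of all genes. PCDHGA4 had 381 and 502 counts in parental and 280 and 228 in ZMYND8 OE, a log2 fold change of -0.84 (SE 0.11, adjusted p = 7.9e-05). PCDHGB1 had 89 and 89 against 52 and 55, a log2 fold change of -0.78 (SE 0.23, adjusted p = 0.0131). Abundant members fell less, PCDHGB7 by 0.35 on the log2 scale, from 25.4 ± 0.5 to 19.8 ± 1.1 RPKM (SD, n = 2), PCDHGA7 by 0.43 and PCDHGB2 by 0.40. In these genes both OE libraries lay below both parental libraries, a separation whose share over all genes was not computed.

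The beta cluster was mixed. PCDHB4 and PCDHB5 were called higher and PCDHB2 lower, beside 11.8% and 6.84% of all genes. With the adjusted p alone 5 of 16 genes were higher and 6 lower, beside 31.7% and 29.1% of all genes. Counts this close to those shares do not set the cluster apart. PCDHB5 had 9 and 7 counts in parental and 54 and 34 in ZMYND8 OE, a log2 fold change of 2.38 (SE 0.37, adjusted p = 0.000261), and it lost its call without ZMYND8 OE replicate 1. PCDHB4 had 219 and 326 counts against 836 and 687, a log2 fold change of 1.45 (SE 0.11, adjusted p = 1.36e-06). PCDHB2 had 381 and 498 counts against 249 and 177, a log2 fold change of -1.09 (SE 0.12, adjusted p = 2.17e-05), and -0.99 without ZMYND8 OE replicate 2, where it was not called. PCDHB2 and PCDHB4 lie in the same cluster a few genes apart. In each the OE libraries did not overlap the parental ones, and the share of all genes so separated was not computed. PCDHB15, with 106 and 150 counts against 288 and 237, had a log2 fold change that rounds to 1.00 but lay just under the threshold, and several alternatives called it. PCDHB1 had 2 and 3 counts in parental and 33 and 36 in ZMYND8 OE. Its summed normalized counts were 13.3 times as high (95% exact interval 5.43 to 42.2, counting error only). Among the abundant genes, PCDHB3 rose by 0.50 and PCDHB16, PCDHB7 and PCDHB8 fell by 0.46, 0.85 and 0.78 on the log2 scale, all with an adjusted p below 0.05. PCDHB14 and PCDHB6 had values of -0.13 and 0.07 and did not pass.

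In knockdown, ZMYND8 KD was compared with KD control, and the fold changes were smaller. Of the 53 members, 49 were tested, PCDHA2, PCDHA3, PCDHA13 and PCDHB1 having too few counts, and 0 were called by edgeR. Of all 19789 genes tested, 1.96% were called. At an unadjusted p below 0.05, 19 members were lower and 1 higher. The share of all genes at that p was not computed, so these counts cannot be set against it. DESeq2 also called 0. With the adjusted p alone, 8 members were lower and 0 higher, against 10.8% and 13.4% of all genes. These 8 were PCDHAC1, PCDHAC2, PCDHB2, PCDHB7, PCDHB8, PCDHB14, PCDHGA6 and PCDHGC4, spread over the 3 clusters. The median log2 fold change was -0.26 over the members tested and -0.01 over all genes, and 39 of 49 values were negative, with similar medians of -0.21, -0.24 and -0.32 in the alpha, beta and gamma clusters.

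PCDHAC2 had 589 and 659 counts in KD control and 399 and 433 in ZMYND8 KD, and fell from 3.51 ± 0.15 to 2.42 ± 0.15 RPKM (SD, n = 2). Its log2 fold change was -0.53 (SE 0.10, adjusted p = 0.00312). PCDHAC1 had 511 and 638 counts against 446 and 414, a log2 fold change of -0.37 (SE 0.11, adjusted p = 0.0396), and PCDHGC4 had 471 and 514 against 348 and 351, a log2 fold change of -0.44 (SE 0.10, adjusted p = 0.0106). In these 3 C-type genes the ZMYND8 KD libraries lay below the KD control libraries. The same held for 30 of the 53 members, PCDHGC5 among them, while 5 members lay above. The separation therefore does not single out these 3. Its share over all genes was not computed in either comparison. PCDHB8, whose sequences are the least distinct of the members, had 503 and 577 counts against 369 and 347, a log2 fold change of -0.54 (SE 0.11, adjusted p = 0.00409), and PCDHGA6 had 319 and 379 against 264 and 221, a log2 fold change of -0.47 (adjusted p = 0.0303). The members with the largest negative values among the rest, PCDHA1 at -0.74 and PCDHGB6 at -0.60, did not pass. The largest positive values among members with a mean above 20 were 0.25 for PCDHA5, 0.21 for PCDHB5, 0.15 for PCDHGC3, 0.13 for PCDHB15 and 0.10 for PCDHGB7, and none passed. PCDHGC5 had 160 and 141 counts against 111 and 117, a log2 fold change of -0.35 that did not pass (adjusted p = 0.165).

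The log2 fold change in overexpression minus that in knockdown was tested as an interaction, with the 8 libraries fitted together. ZMYND8 rose in the one and fell in the other, so changes of opposite sign add up in this difference and do not mark discordant responses. Of 53 members, 10 were called higher and 1 lower, against 11.1% and 7.66% of the 22619 genes tested. These 10 were the same members that were called higher in overexpression, so the result largely repeats that comparison. The difference was 3.68 for PCDHAC2 (SE 0.17, adjusted p = 2.21e-10), 3.61 for PCDHAC1 (SE 0.19, adjusted p = 5.66e-10) and 2.88 for PCDHGC4 (SE 0.16, adjusted p = 9.89e-10) on the log2 scale. PCDHGC5 was the member called lower, at -1.32 (SE 0.24, adjusted p = 0.000281), and its values were negative in both experiments. The alpha cluster gave 7 of the 10 and the beta cluster PCDHB4 and PCDHB5. PCDHB2, lower in ZMYND8 OE and with an adjusted p of 0.043 in knockdown, had a difference of -0.82.

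The summed level of a cluster shows the same split. The alpha cluster summed to 14.8 and 15.3 CPM in parental, 57.3 and 64.5 in ZMYND8 OE, 38.3 and 42.5 in KD control and 32.3 and 32.1 in ZMYND8 KD. No 2 groups overlapped, and the log2 ratio was 2.02 in overexpression and -0.33 in knockdown. The beta cluster summed to 168 ± 4, 156 ± 2, 203 ± 13 and 179 ± 3 CPM (SD, n = 2) in the same order, log2 ratios of -0.11 and -0.18. The gamma cluster, the most abundant, summed to 309 ± 7, 232 ± 7, 259 ± 11 and 259 ± 5 CPM (SD, n = 2), log2 ratios of -0.41 and 0.00. Without PCDHGC3, the log2 ratio of the gamma sum in overexpression was -0.29. With 2 libraries per group the smallest two-sided p of an exact permutation test is 0.333, so these sums were not tested. The alpha sum was lowest in parental, and so was that of the noradrenergic markers, whose part in the alpha result was not tested.

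**Figure D4:**
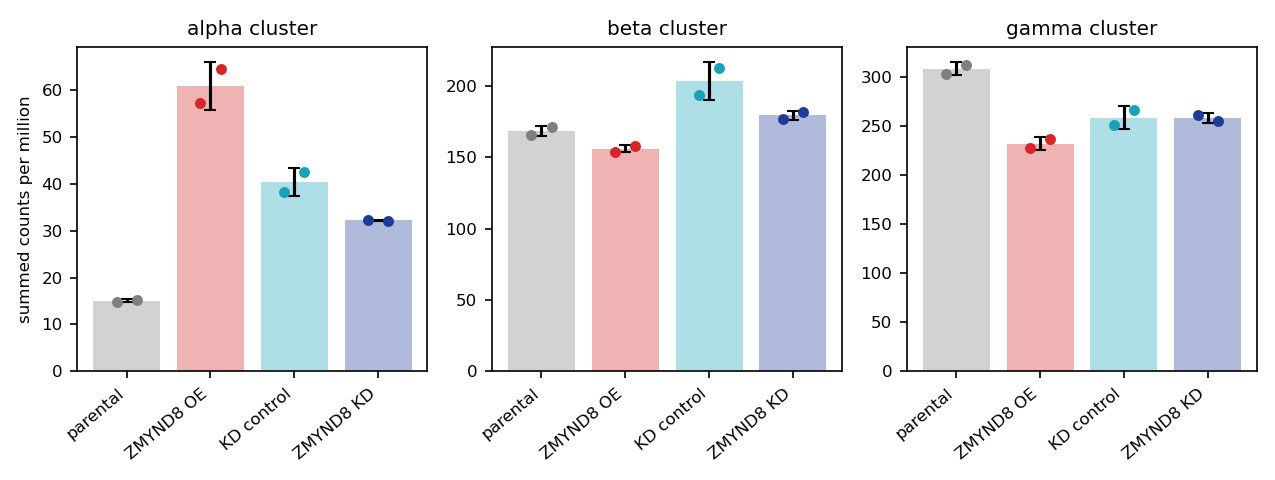
Summed CPM of the members of each cluster, with bars from 0 at the mean of 2 libraries, error bars of 1 SD and 1 point per library. The alpha sum is 15.1 in parental and 60.9 in ZMYND8 OE, whereas the gamma sum is 309 in parental and 232 in ZMYND8 OE.

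Among 30 genes that act on the chromatin of the clusters, 29 were tested, since EHMT2 is listed at 0 counts in every library. DNMT3A, which places new DNA methylation, was the one called in overexpression, with 3301 and 4048 counts in parental and 10862 and 9426 in ZMYND8 OE, a log2 fold change of 1.42 (SE 0.05, adjusted p = 3.17e-09). Of all genes tested, 11.8% were called higher and 6.84% lower. With the adjusted p alone, 11 of the 29 were higher and 8 lower, beside 31.7% and 29.1% of all genes, and their median was 0.01. CTCF had a log2 fold change of 0.13 (adjusted p = 0.0401), and the cohesin subunits RAD21 and SMC3 had values of -0.05 and 0.09 that did not pass. SMCHD1, a repressor of clustered protocadherins, fell by 0.33 on the log2 scale (adjusted p = 0.00033), and WIZ rose by 0.19 (adjusted p = 0.00803). Larger changes that were not called included rises of 0.95 in TET3 (adjusted p = 4.86e-08) and 0.92 in TET1 (adjusted p = 1.24e-06). TET2 rose by 0.37 (adjusted p = 7.67e-05), and REST fell by 0.61 (adjusted p = 2.29e-06). In knockdown edgeR and DESeq2 called 0 of the 29, beside 1.96% of all genes called by edgeR. At an unadjusted p below 0.05 there were 7, and the share of all genes at that p was not computed. With the adjusted p alone, 3 were higher and 0 lower, beside 13.4% and 10.8% of all genes.

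Of 21 partners and processing enzymes of the proteins, RET, a receptor tyrosine kinase that binds clustered protocadherins, was called higher in ZMYND8 OE. No other partner was called there. Of all genes tested, 11.8% were called higher and 6.84% lower in overexpression, and 1.96% were called in knockdown. RET had 5134 and 6806 counts in parental and 109150 and 102667 in ZMYND8 OE, a log2 fold change of 4.12 (SE 0.08, adjusted p = 5.95e-11). APH1B, a subunit of the gamma-secretase that cuts these proteins, was the one called in knockdown, with 761 and 801 counts in KD control and 1474 and 1576 in ZMYND8 KD, a log2 fold change of 1.01 (SE 0.07, adjusted p = 7.43e-06). It lies just past the threshold and lost the call with upper quartile normalization and without ZMYND8 KD replicate 2.

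Of 85 other genes within 500 kb of the span, 45 were tested in overexpression, 5 were called higher and 0 lower, beside the 11.8% called higher among all genes, and their median log2 fold change was 0.25. Without ZMYND8 OE replicate 2, 3 were called, and with a mean count above 100 only 1. The largest changes were outside the clusters, in PCDH1, a protocadherin gene with no place in the clusters, which lies 340109 bases beyond the gamma cluster. PCDH1 had 22 and 32 counts in parental and 1335 and 1128 in ZMYND8 OE, against 361 to 435 in the knockdown experiment, a log2 fold change of 5.46 (SE 0.13, adjusted p = 1.8e-10). The nearby lncRNA ENSG00000287726 had 1 and 2 counts in parental against 58 and 60, a ratio of normalized sums of 37.9 (95% exact interval 12.6 to 186, counting error only). The other 3 were lncRNAs. ENSG00000278915, antisense to PCDHA12, had 8 and 8 counts against 51 and 44, a log2 fold change of 2.51 (adjusted p = 8.7e-05), and ENSG00000279726 and ANKHD1-DT had 1.44 and 1.78. TAF7, a subunit of the general transcription factor TFIID between the beta and gamma clusters, had a log2 fold change of -0.19 (adjusted p = 0.0103), DIAPH1, 2035 bases beyond the gamma cluster, -0.50 (adjusted p = 1.01e-05), and HDAC3 0.02. SLC25A2 had 9 to 17 counts per library and a value of -0.16 that did not pass. In knockdown edgeR called 0 of 46 tested neighbours, beside 1.96% of all genes, and DESeq2 called 0. At an unadjusted p below 0.05 there were 10, and the share of all genes at that p was not computed.

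**Figure D5:**
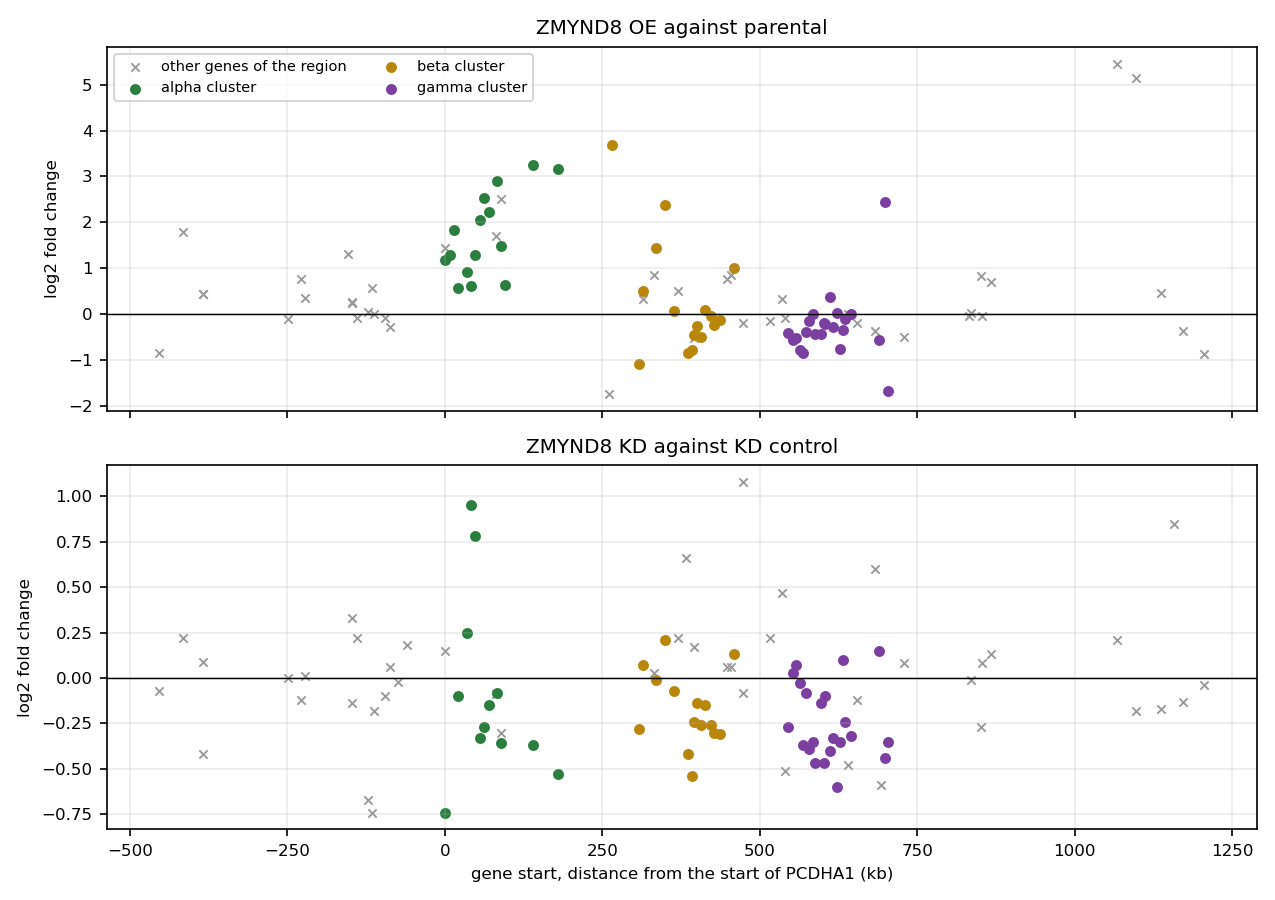
Log2 fold change of the members and of the other genes tested within 500 kb, by the distance of the gene's start from that of PCDHA1 in kb, in overexpression (top) and knockdown (bottom, on a narrower axis). The alpha genes lie between 0.57 and 3.25 in overexpression, and PCDH1, at 5.46, is the highest cross on the right.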

How the data were processed

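The authors deposited counts, unnormalized and whole for each gene, for all 8 libraries. According to the methods, paired-end reads were trimmed with Trim_Galore, those with a Phred score below 25 removed, and the rest mapped by Hisat2 (GRCh38). The methods name GENCODE release 28 and featureCounts for the counting, and whether every identifier in the table belongs to that release was not checked. Exon positions and lengths were taken from the table, and symbols from release 44. The strand setting is not given in the sources used here. The submitters' processing notes also name DESeq2, HISAT2 and hg38.

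Of 60662 lines, 3 lines of 1 split gene were left out. Libraries were grouped by their treatment labels. For each comparison edgeR 4.0.16 (R 4.3.3) was run across all genes, with filterByExpr, TMM scaling, the two-sided quasi-likelihood test and Benjamini-Hochberg adjustment. P-values rest on 2 libraries per group. The estimate of spread for each gene is drawn toward a trend over all genes tested, so a p-value does not measure that gene's spread alone. RPKM and CPM were computed here from the counts with TMM factors over all 8 libraries. Named are the 5 highest members of each cluster, the C-type members, the 5 largest increases and decreases per comparison with a mean above 20, called genes of the other lists and a few fixed genes, with other members added after their values were seen. The rule for members used no measured value, but it and the other lists were set with earlier results of these data known.

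Alternatives were RLE and upper quartile normalization, no filter, DESeq2 1.42.0, other thresholds, a replicate block, a length and GC correction, all 8 libraries in 1 fit and leaving out each library. Replicates differed by more than counting noise, with a chi-square of 5.52 to 7.97 for each degree of freedom.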

Additional observations from a re-analysis of the deposited data

How the results depend on the processing

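Leaving out each library in turn gave 10 to 14 members called higher and 2 called lower in overexpression, 0 in knockdown, and 10 to 11 higher and 1 lower for the difference. With no threshold on fold change, 17 members were lower in overexpression, 8 were called in knockdown and 7 were lower for the difference; the same change gave 19 and 3 chromatin genes, 14 and 8 partners and 21 and 4 neighbours in overexpression and knockdown. Upper quartile normalization called 3 chromatin genes and 2 partners in overexpression and 0 partners in knockdown, and the length and GC correction called 2 chromatin genes and 2 partners in overexpression. Leaving out a library gave 1 to 2 chromatin genes (2 without parental replicate 1), 1 to 2 partners (2 without ZMYND8 OE replicate 1) and 3 to 5 neighbours (3 without ZMYND8 OE replicate 2) in overexpression. In knockdown it gave 0 chromatin genes, 0 to 1 partners (0 without ZMYND8 KD replicate 2) and 0 to 1 neighbours (1 without KD control replicate 1). A mean above 100 left 1 neighbour. Equal counts of members do not mean the same members, since PCDHA9, PCDHB2 and PCDHB5 each lost a call when a library was left out.

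The log2 ratio of the alpha sum was 1.73 without PCDHAC1 and 1.93 to 2.1 without each library, and -0.40 to -0.25 in knockdown. That of the beta sum in overexpression was -0.16 with RLE and -0.05 with upper quartile normalization. That of the gamma sum was -0.46, -0.35 and, without PCDHGC3, -0.29 in overexpression and -0.10 in knockdown. Without each library the gamma ratio ran from -0.44 to -0.38 and from -0.05 to 0.04, and the beta ratio from -0.13 to -0.09 and from -0.24 to -0.11. The median log2 fold change of all genes in overexpression was 0.03, and 0.14 without the filter on low counts.

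Of 2019 values of single members, 0 changed direction past a threshold, 4 lost a call, 21 gained one and 59 changed sign without ever passing. The replicate numbers pair only 2 libraries per group, with correlations of same-numbered deviations of 0.107 and 0.246, so the block was not read as a pairing. With the replicate block, 11 members were called higher and 2 lower in overexpression and 0 in knockdown; with the block and the length and GC correction, 2 chromatin genes and 2 partners were called. With 2 libraries per group and counts of 20 or less for 7 members, changes of low alpha genes are poorly measured; the causes of these shifts were not tested.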
